A study of Mus musculus with 21 samples.

Results

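The genes described here are 10 members of the Bcl2 family of cell death regulators, taken by name: Bcl2, Bcl2l1, Mcl1, Bcl2l11, Bax, Bak1, Bad, Bid, Bik and Bmf. One probe set stood for each gene, the brightest on average. Of the 10 genes, 9 had a probe set among the 34760 on the array, each of them 1, and Bax had none in the array annotation used and was not analysed here. The level of a gene is the log2 value that robust multiarray averaging gave its probe set, so a difference of 1 is a doubling. Because probes differ in brightness, levels were compared between arrays for 1 gene and never between genes.

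Bcl2 family proteins meet at the outer mitochondrial membrane. Pro-survival members such as Bcl2, Bcl2l1 (Bcl-xL) and Mcl1 hold back Bax and Bak1, the effectors that open the membrane and release cytochrome c, while the BH3-only proteins Bcl2l11 (Bim), Bid, Bad, Bik and Bmf carry stress signals that engage the survival proteins or the effectors. In the mammary gland the family is known for its part in the cell loss of involution, and Her-2 signalling is known to hold Bim down.

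The cells were N202, a mouse mammary tumour line derived from transgenic mice in which the MMTV promoter drives the rat HER-2/neu gene. All groups, the parental cells included, carried an H2B-GFP construct. Spheroids were grown in dorsal skinfold chambers of female nude mice on minced, revascularized tissue of donor mice for 21 days a passage, returned to culture, selected with G418, sorted by GFP and expanded before RNA was taken. The 16 groups on 21 arrays were cells adapted to brain at passages P1, P2, P3 and P4 (21, 42, 63 and 84 days on tissue, 2 arrays each), cells of a second brain experiment at P1 and P2 (1 array each), cells adapted to bone marrow and to lung at P1 to P4 (1 array each), cells placed on breast (P1, 1 array) and the parental line at P0 (2 arrays). In each brain pair 1 array carries the label technical replicate, and the methods describe such replicates as begun from separately cultured cells of the same line. The first brain course is therefore 1 line followed over passages, and its p-values measure at most the spread between cultures of that line. The series' own design text speaks of technical replicates of the array analysis, and read that way they would measure the spread between arrays alone.

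A group of 5 arrays stood apart in their dim values. In the second array of brain P1, P2, P3 and P4 and in the lung P1 array the lower quartile of all values was 3.77 to 4.09, against 3.55 to 3.70 on the other arrays. Each result of a member that passed its test is given below with and without these 5 arrays, and those of other pathway genes with all arrays only. Without these 5 arrays 16 arrays in 15 groups were left, with 1 residual degree of freedom. As a check on identity, 8 of 9 mammary epithelial markers lay above the filter limit of 7.33 in every group, and 0 of the astrocyte, blood cell, lung epithelial, fibroblast and endothelial markers did so in any. The neuronal marker Map2 and the oligodendrocyte marker Cnp passed the limit in every group, parental cells included. A second oligodendrocyte marker, Mbp, passed it at 7.36 in brain P2, 7.50 in lung P2 and 7.41 in lung P4, against 7.24 in parental cells. Of 6 macrophage and microglia markers, Cd68 alone passed the limit, at 7.95 in brain P1, 8.26 in brain P2, 7.72 in brain P4 and 7.49 in lung P4, against 6.01 in parental cells. The other 5, among them Ptprc, Csf1r, Aif1 and Cx3cr1, were at most 6.21 in every group. The mean of the 6 was 5.06 in brain P1 and 4.96 in brain P2, against 4.64 in parental cells. Cd68 moved with the early brain passages in which the Bcl2 family differed, and its part in those results was not tested. In RNA from whole cultures, fewer cells that express a gene and less RNA per cell cannot be told apart.

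A filter kept the probe sets of 7300 genes by their largest group mean, among them 6 of the 9 measured members: Bcl2, Bcl2l1, Mcl1, Bcl2l11, Bak1 and Bid. Bcl2l11 passed only through the lone bone marrow P4 array, at 7.34. Bad, Bik and Bmf lay below the limit in every group mean, and their values come from a fit to all probe sets.

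**Figure D1:**
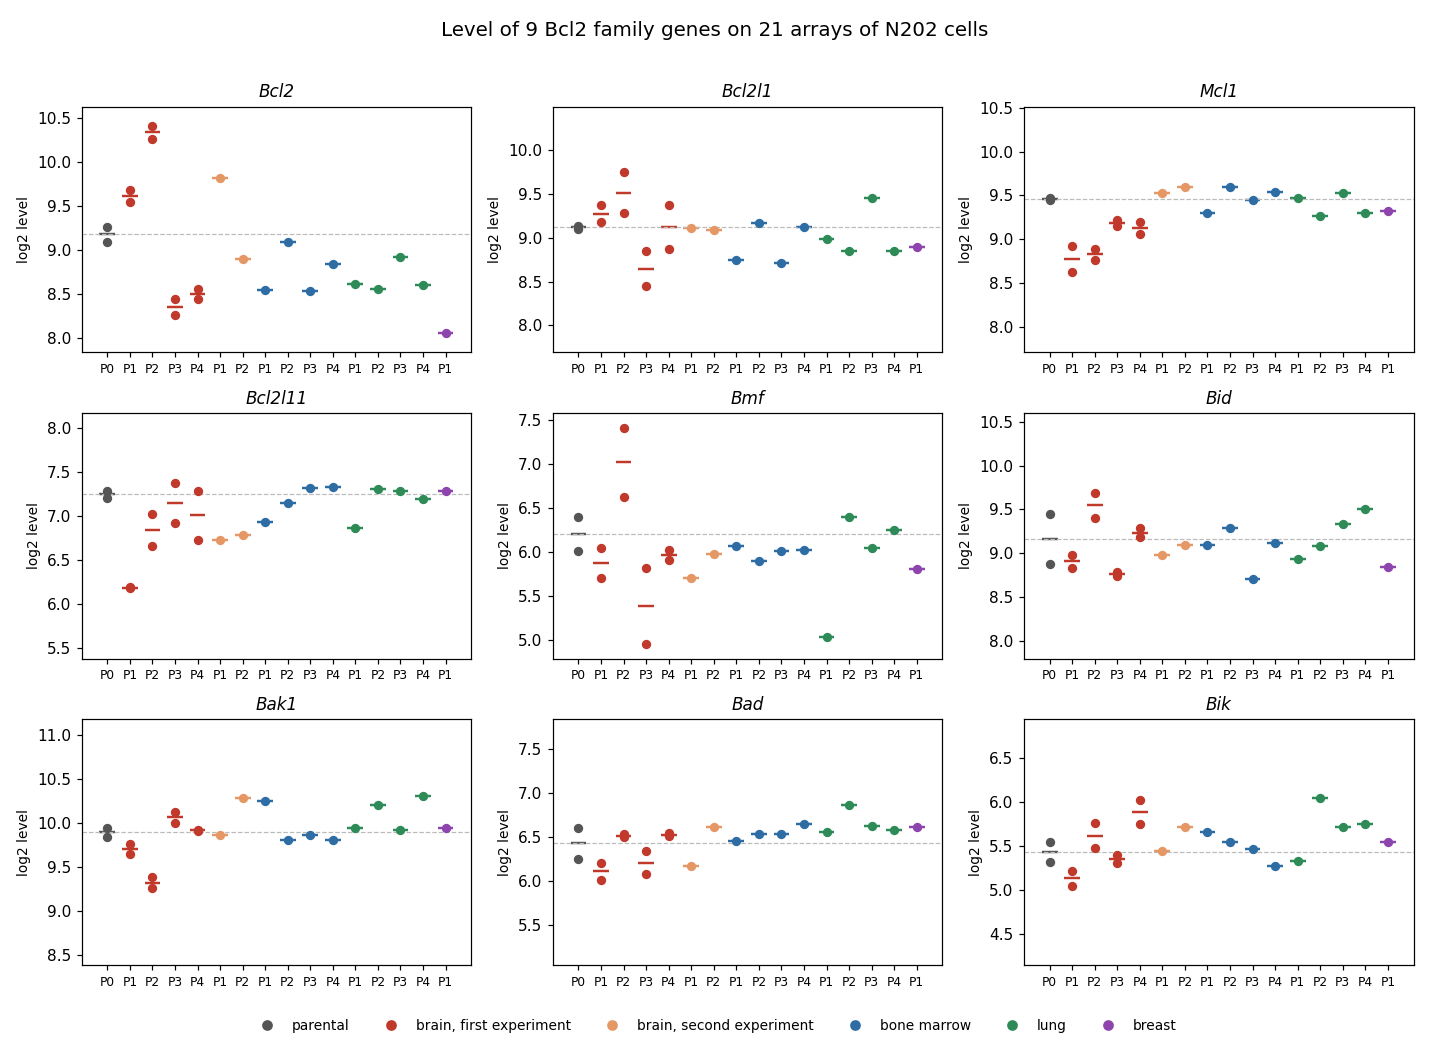
Log2 level (vertical axis, same span of 2.8 log2 units in each panel) of the 9 measured genes on each of the 21 arrays, grouped by tissue and passage from P0 to P4. Points are arrays, short bars are group means and the dashed line is the parental mean. Bcl2 is high in brain P1 and P2 and low in brain P3 and P4, whereas Mcl1 and Bak1 have their lowest values in brain P1 and P2.

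The gene that varied most along the brain course among the 6 that passed the filter was Bcl2, the founding survival protein of the family. Its level was 9.26 and 9.09 in parental cells, 9.54 and 9.68 at brain P1, 10.26 and 10.41 at brain P2, 8.25 and 8.44 at brain P3, and 8.55 and 8.44 at brain P4. Both arrays of a pair lay within 0.19 of each other, while the group means spanned 8.35 to 10.34. All early brain arrays were above both parental arrays and all late brain arrays below them. How many kept probe sets had this order was not counted. At P2 Bcl2 rose 2.24-fold over parental cells (log2 difference 1.16, SE 0.17, limma adjusted p = 0.0052). In the fit to all probe sets the adjusted p of Bcl2 at P2 was 0.067. At P1 its difference was 0.44 (SE 0.17) and did not pass after adjustment (adjusted p = 0.20). At P3 and P4 the differences were -0.83 and -0.68 (SE 0.17 each), with adjusted p of 0.089 and 0.13.

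Mcl1, a short-lived survival protein, took the other direction in the same cells. Its level was 9.45 and 9.47 in parental cells, 8.92 and 8.63 at brain P1, 8.77 and 8.89 at brain P2, 9.22 and 9.16 at brain P3, and 9.20 and 9.06 at brain P4. Every brain array of the first experiment was below both parental arrays, and the 4 early arrays were the lowest. The share of kept probe sets on 1 side of the parental arrays throughout was not counted. Mcl1 fell at P2 (log2 difference -0.63, SE 0.17, limma adjusted p = 0.048), and its difference at P1 was -0.68 (SE 0.17) with an adjusted p of 0.059. In the fit to all probe sets the adjusted p of Mcl1 at P2 was 0.31.

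Bcl2l11 encodes Bim, a BH3-only activator of cell death. Its level was 7.21 and 7.29 in parental cells, 6.19 and 6.18 at brain P1, 6.67 and 7.03 at brain P2, 7.37 and 6.92 at brain P3, and 7.29 and 6.73 at brain P4. The P1 arrays were the lowest of the 21, and from P2 on the arrays of a pair lay 0.36 to 0.56 apart. At P1 Bcl2l11 fell below parental cells (log2 difference -1.07, SE 0.24, limma adjusted p = 0.043). Both means, 6.19 and 7.25, lie under the filter limit, and in the fit to all probe sets the same difference had an adjusted p of 0.25. At P2 the difference was -0.40 (SE 0.24, adjusted p = 0.34).

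Bak1, 1 of the 2 effectors in the list, was at 9.95 and 9.84 in parental cells, 9.66 and 9.77 at brain P1, 9.38 and 9.26 at brain P2, 10.01 and 10.13 at brain P3, and 9.92 and 9.93 at brain P4. The P2 arrays were the lowest of the 21. Its difference at P2 was -0.57 (SE 0.16) and just missed the threshold (limma adjusted p = 0.052).

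Counted over the course, 1 of 6 tested members was called at brain P1, where 4.71% of all kept probe sets were called, and 2 of 6 at brain P2, where 11.3% were. The called members were Bcl2l11 at P1 and Bcl2 and Mcl1 at P2. At P3 and P4 limma called 0 of 6, beside 0.599% and 0.931% of kept probe sets, and Bcl2 alone had an unadjusted p under 0.05 at either passage, as did 12.1% and 14.9% of kept probe sets. A fit with a variance trend also called 0 at P3 and P4. Without the 5 arrays of high lower quartile the P2 differences were 1.09 for Bcl2 (adjusted p = 0.14) and -0.69 for Mcl1 (adjusted p = 0.21), and that of Bcl2l11 at P1 was -1.06 (adjusted p = 0.23). Leaving out any 1 of the 4 arrays compared ended the Bcl2l11 call at P1 (adjusted p 0.14 to 0.21) and the Mcl1 call at P2 (adjusted p 0.13 to 0.20), but not that of Bcl2 (adjusted p 0.024 to 0.037).

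Promoter sequences of the 4 members that passed a test in some comparison are shown because these genes moved in the same passages, Bcl2 upward and the other 3 downward in early brain cells. They come from RefSeq on GRCm38.p6 and give the 250 bases before an annotated start, read 5′ to 3′ on the gene's strand. All 9 measured members except Bik matched an entry. Capitals mark matches, on either strand, to GGGCGG (a GC box) or TGTTTAC (a FOXO core); overlapping matches were counted one by one. CACGTG (an E-box), TGACGTCA (a CRE) and TTCNNNGAA (a STAT site) were also searched, and none of these 3 is in the windows shown. The windows are chr1:106714291-106714540 on the minus strand for Bcl2, chr2:128125788-128126037 on the plus strand for Bcl2l11 (the first of 2 starts), chr3:95658471-95658720 on the plus strand for Mcl1 and chr17:27028628-27028877 on the minus strand for Bak1.
Bcl2: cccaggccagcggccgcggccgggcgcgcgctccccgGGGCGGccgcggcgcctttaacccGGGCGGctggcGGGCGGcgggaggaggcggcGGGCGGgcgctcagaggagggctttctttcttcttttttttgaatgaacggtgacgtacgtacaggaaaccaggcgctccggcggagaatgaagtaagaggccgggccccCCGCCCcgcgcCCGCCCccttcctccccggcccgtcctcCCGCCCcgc
Bcl2l11: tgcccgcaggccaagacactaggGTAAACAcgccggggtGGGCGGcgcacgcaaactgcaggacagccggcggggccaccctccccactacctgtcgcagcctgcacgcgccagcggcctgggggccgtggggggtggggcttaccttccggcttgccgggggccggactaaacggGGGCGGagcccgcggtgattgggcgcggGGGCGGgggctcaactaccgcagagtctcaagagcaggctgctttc
Mcl1: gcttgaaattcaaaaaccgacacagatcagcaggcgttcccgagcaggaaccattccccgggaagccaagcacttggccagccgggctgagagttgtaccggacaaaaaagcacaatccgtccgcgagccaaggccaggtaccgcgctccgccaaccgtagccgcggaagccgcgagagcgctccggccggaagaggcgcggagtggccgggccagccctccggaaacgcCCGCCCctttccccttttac
Bak1: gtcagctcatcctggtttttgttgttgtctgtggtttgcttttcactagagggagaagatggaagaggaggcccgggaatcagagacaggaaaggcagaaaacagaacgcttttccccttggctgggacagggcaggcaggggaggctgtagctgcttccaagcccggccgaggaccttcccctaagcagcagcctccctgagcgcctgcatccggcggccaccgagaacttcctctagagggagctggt

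The Bcl2 window held 7 GC boxes, the Bcl2l11 window 3, the Mcl1 window 1 and the Bak1 window 0, and 32.7% of all 32851 promoter windows of this length held at least 1. GC content was 74.8%, 72.0%, 64.4% and 58.4% in the same order. The single FOXO core, which 3.17% of all windows held, was in the Bcl2l11 window, printed as its reverse complement. The window of the second Bcl2l11 start, not printed, held 2 GC boxes and 0 FOXO cores. These are letter matches and were not measured as binding sites.

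The question of stage was put by setting the early brain passages against the late ones, 4 arrays against 4. Of the 6 tested members 3 differed, where 23.9% of all kept probe sets were called. Bcl2 averaged 9.97 in early and 8.42 in late brain cells, a 2.93-fold difference (log2 1.55, SE 0.12, limma adjusted p = 7.193e-05), with 4 early arrays at 9.54 to 10.41 and 4 late arrays at 8.25 to 8.55. Bak1 was lower in early cells, at 9.26 to 9.77 against 9.92 to 10.13 in late cells (log2 difference -0.48, SE 0.11, adjusted p = 0.017). Neither gene's groups overlapped, and the same held for 22.0% of kept probe sets. Bcl2l11 was also lower in early cells, at 6.18 to 7.03 against 6.73 to 7.37 in late cells, and these ranges overlap (log2 difference -0.56, SE 0.17, adjusted p = 0.044). In the fit to all probe sets the adjusted p were 0.0023 for Bcl2, 0.13 for Bak1 and 0.21 for Bcl2l11.

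The remaining members did not pass. Bcl2l1, which encodes the survival protein Bcl-xL, was at 9.18 to 9.74 in early and 8.44 to 9.37 in late brain cells (log2 difference 0.51, SE 0.17, adjusted p = 0.062). Mcl1 was at 8.63 to 8.92 in early and 9.06 to 9.22 in late cells without overlap, and its difference of -0.36 (SE 0.12) had an adjusted p of 0.061. Without the 5 arrays of high lower quartile no member passed: Bcl2 differed by 1.50 (adjusted p = 0.057), Bcl2l11 by -0.90 (adjusted p = 0.11) and Bak1 by -0.44 (adjusted p = 0.26). Leaving out 1 brain array at a time, the Bcl2l11 call was lost in 6 of 8 fits (all but those without the second P3 or P4 array), with adjusted p up to 0.13. The Bak1 call was lost without the first P1 array (adjusted p = 0.066) or the second P2 array (adjusted p = 0.057).

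**Figure D2:**
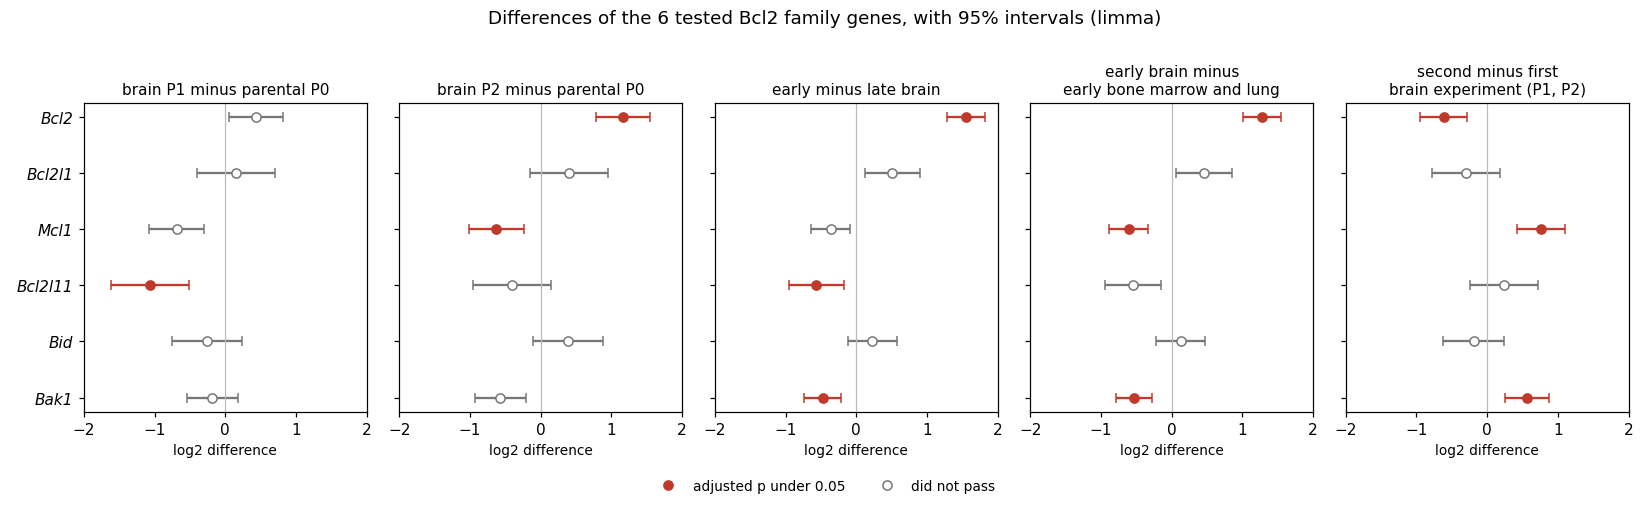
Log2 difference (horizontal axis) with its 95% interval for the 6 members that passed the filter, in the 5 comparisons in which a member was called. Filled points passed at an adjusted p under 0.05 (limma) and open points did not. Bcl2 lies at 1.16 to 1.55 in brain P2, early against late brain and early brain against bone marrow and lung, and at -0.62 in the second against the first brain experiment.

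The BH3-only members other than Bcl2l11 passed no test. Bid, which caspases cleave to an active fragment, was at 8.98 and 8.83 at brain P1 and 9.69 and 9.40 at brain P2, but its parental arrays were 8.88 and 9.45, so that each of these pairs had an array inside the parental range. Bmf, which is tied to the cytoskeleton, had its 2 highest values at brain P2, 6.63 and 7.42, against 6.01 and 6.40 in parental cells, with 0.79 between the arrays of the P2 pair. Its difference at P2 was 0.81 (SE 0.37), and its early against late brain difference was 0.77 (SE 0.26), with an adjusted p of 0.20 in the fit to all probe sets. Bad, which growth factor signals hold inactive by phosphorylation, ran from 6.02 to 6.87 over the 21 arrays. Bik, found at the endoplasmic reticulum, ran from 5.04 to 6.04. No difference of Bad or Bik had an unadjusted p under 0.05 in the comparisons made.

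In the cells adapted to bone marrow and lung, the question was whether the same genes moved on other tissues. Bcl2 was at 8.54, 9.08, 8.53 and 8.84 in bone marrow P1, P2, P3 and P4, and at 8.61, 8.55, 8.91 and 8.60 in lung P1, P2, P3 and P4. It was at 8.05 on breast tissue, the lowest of the 21 arrays. All 9 values were below both parental arrays, that of bone marrow P2 by the smallest margin. They share the same parental pair, and the share of kept probe sets doing the same was not counted. The mean difference of Bcl2 from parental cells was -0.43 (SE 0.15) over bone marrow and -0.51 (SE 0.15) over lung, with limma adjusted p of 0.48 and 0.57. It was -1.12 (SE 0.21, adjusted p = 0.092) on breast tissue.

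No member was called on these 3 tissues, beside 0.371% of kept probe sets for bone marrow, 0.219% for lung and 0.276% for breast. By limma's unadjusted p under 0.05, Bcl2 alone of the 6 differed in each, beside 7.73%, 5.41% and 7.13% of kept probe sets, and the fit with a variance trend called 0 as well. Mcl1 was between 9.30 and 9.60 in bone marrow, between 9.27 and 9.52 in lung and at 9.32 on breast tissue, against 9.45 and 9.47 in parental cells. Bcl2l11 was at 6.94 in bone marrow P1 and 6.87 in lung P1, the lowest of each course, and at 7.15 to 7.34 thereafter. Bak1 was at 9.81 to 10.26 in bone marrow and 9.93 to 10.31 in lung, so none of these arrays reached down to the early brain values.

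The early brain cells were then set against the cells of the same passages from bone marrow and lung, 4 arrays against 4. Bcl2 was at 9.54 to 10.41 in early brain cells, against 8.54, 9.08, 8.61 and 8.55 in bone marrow P1 and P2 and lung P1 and P2. That is a 2.42-fold difference (log2 1.28, SE 0.12, limma adjusted p = 0.00029). Mcl1 was lower in brain, at 8.63 to 8.92, against 9.30, 9.60, 9.47 and 9.27 (log2 difference -0.61, SE 0.12, adjusted p = 0.0087). Bak1 was lower too, at 9.26 to 9.77, against 10.26, 9.81, 9.95 and 10.21 (log2 difference -0.54, SE 0.11, adjusted p = 0.011). In none of the 3 genes did the groups overlap, nor did they for 21.7% of kept probe sets.

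These 3 of 6 members compare with 20.5% of kept probe sets called. In limma's fit to all probe sets Bcl2 passed (adjusted p = 0.0062), while Mcl1 and Bak1 did not (adjusted p of 0.081 and 0.0996). Bcl2l11 differed by -0.55 (SE 0.17, adjusted p = 0.053). Each brain passage is set here against 2 lone arrays, whose spread was taken to be that of the paired groups. Without the 5 arrays of high lower quartile the differences were 1.18 for Bcl2 (adjusted p = 0.058), -0.55 for Mcl1 (adjusted p = 0.15) and -0.57 for Bak1 (adjusted p = 0.14).

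Mcl1 and Bak1 shared a further feature. In both, the 4 early brain arrays of the first experiment were below all of the other 17 arrays, with a highest early value of 8.92 against a lowest other value of 9.06 for Mcl1, and 9.77 against 9.81 for Bak1. Of all kept probe sets, 7.68% had their early brain arrays outside the other 17 in this way, in either direction. Bcl2 missed it through 1 array, the second brain experiment at P1.

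The second brain experiment repeated P1 and P2 with a separate line, and addresses whether the early course recurred. Bcl2 was at 9.82 at P1 and 8.89 at P2 of the second experiment, against 9.54 and 9.68 at P1 and 10.26 and 10.41 at P2 of the first. So P1 of the second experiment was above both P1 arrays of the first, and P2 was below the parental arrays. Over both passages Bcl2 was lower in the second experiment (log2 difference -0.62, SE 0.15, limma adjusted p = 0.030). Mcl1 was at 9.53 and 9.60 in the second experiment, above both parental arrays, against 8.63 to 8.92 in the first (log2 difference 0.76, SE 0.15, adjusted p = 0.013). Bak1 was at 9.87 and 10.28 in the second, against 9.26 to 9.77 in the first (log2 difference 0.56, SE 0.14, adjusted p = 0.034).

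Bcl2l11 was the member whose values in both experiments lay on the same side of parental cells at P1 and P2, at 6.73 and 6.78 in the second experiment and 6.18 to 7.03 in the first, against 7.21 and 7.29 in parental cells. The share of kept probe sets of which this held was not counted. The Bcl2l11 difference from parental cells in the second experiment was -0.50 (SE 0.24, adjusted p = 0.45), and the difference between experiments was 0.24 (95% interval -0.24 to 0.72). Between experiments 3 of 6 members were called, beside 11.3% of kept probe sets. In limma's fit to all probe sets Bcl2, Mcl1 and Bak1 did not pass, with adjusted p of 0.22, 0.12 and 0.24. Between the second experiment and parental cells 0 of 6 were called, by limma and with a variance trend, 0 had an unadjusted p under 0.05, against 12.5% of kept probe sets, and 0.295% of kept probe sets were called. Without the 5 arrays of high lower quartile the differences between experiments were -0.54 for Bcl2, 0.72 for Mcl1 and 0.56 for Bak1, with adjusted p of 0.15 to 0.23. Leaving out any 1 early brain array ended the Bcl2 and Bak1 calls (adjusted p 0.052 to 0.10). Experiment, line and array processing cannot be told apart here.

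With both brain experiments in 1 group and the adapted line as a random block, no member passed against parental cells: Bcl2 differed by 0.59 at P2 (SE 0.41), Mcl1 by -0.32 at P2 (SE 0.34) and Bcl2l11 by -0.85 at P1 (SE 0.32), with adjusted p of 0.997 to 0.999. This fit called 0 of all kept probe sets at P1 and at P2, so its calls cannot set the members apart from other genes.

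The Mcl1 values were also set beside the other genes of its chromosome. The median difference from parental cells of 403 tested genes of chromosome 3 was -0.30 at brain P1, -0.35 at P2, -0.07 at P3 and -0.25 at P4, against 0.04 and 0.09 at P1 and P2 of the second experiment. The Mcl1 differences in the 4 passages of the first experiment were -0.68, -0.63, -0.27 and -0.33, so Mcl1 lay below the chromosome median in each of them. After each array's chromosome medians were subtracted, the Mcl1 difference was -0.28 at P2 (adjusted p = 0.33), -0.26 between early brain and early bone marrow and lung (adjusted p = 0.19) and 0.38 between experiments (adjusted p = 0.16). The Bcl2, Bcl2l11 and Bak1 differences of the early against late comparison were 1.27, -0.74 and -0.66 after the same step, and all 3 passed, whereas the Bcl2 difference between experiments became -0.57 and did not pass (adjusted p = 0.072).

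**Figure D3:**
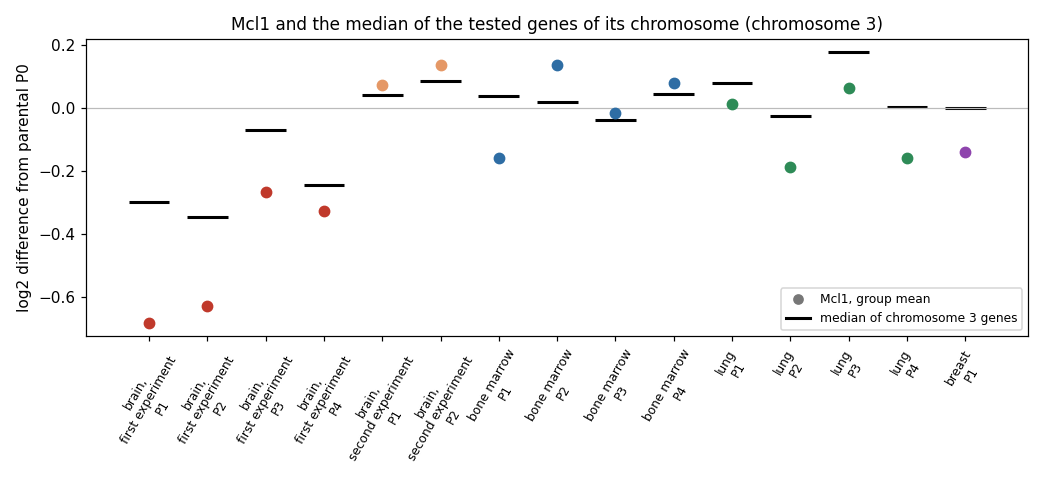
Difference from parental cells, in log2 units on the vertical axis, of the Mcl1 group mean (points) and of the median of 403 tested chromosome 3 genes (black bars) in the 15 other groups. Both are lowest in brain P1 and P2 of the first experiment, at -0.68 and -0.63 for Mcl1 and -0.30 and -0.35 for the median, and closer to 0 in the second experiment, bone marrow, lung and breast.

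The neighbours of the family in the pathway are described from lists of pathway genes. No pro-survival relative passed the filter, of 3 measured. Among 10 pro-death relatives 4 passed the filter. Bnip3, a mitochondrial protein induced by low oxygen, was at 5.90 and 5.26 at brain P1, 7.00 and 7.60 at P2, 8.91 and 8.50 at P3 and 8.69 and 8.80 at P4. Early brain cells lay below late ones without overlap (log2 difference -2.28, SE 0.32, limma adjusted p = 0.0017). The parental arrays of Bnip3, 6.93 and 8.48, lay on either side of the P2 arrays, and P1 was below both (log2 difference -2.12, SE 0.46, adjusted p = 0.035). Bnip3l, its relative in the removal of mitochondria, also fell in early against late brain cells (log2 difference -0.64, SE 0.16, adjusted p = 0.021), so 2 of the 4 fell, where 10.3% of kept probe sets fell. In the fit to all probe sets the adjusted p of Bnip3l was 0.13. That of Bnip3 was 0.017 for early against late brain and 0.20 at P1. Bcl2l15 was higher in early brain cells, at 7.75 to 8.51, than in early bone marrow and lung, at 6.25 to 7.49 (log2 difference 1.39, SE 0.25, adjusted p = 0.0052). Against parental cells, at 7.37 and 8.53, its difference was 0.45 at brain P1 and -0.05 at brain P2 (adjusted p of 0.54 and 0.95), -1.14 over bone marrow (adjusted p = 0.30) and -0.90 over lung (adjusted p = 0.74).

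Of 6 tested apoptosome and caspase genes, 0 were called in any of the 11 comparisons. Of 6 inhibitor of apoptosis genes and their antagonists, 2 rose in early against late brain cells and 0 fell, where 13.6% of kept probe sets rose. Both entered the filter through brain P2 and few other groups, so the filter favoured this count, which is not read as support. Xiap, which blocks caspases directly, was at 7.79 and 7.66 at brain P1, 7.21 and 7.51 at P2, 7.07 and 7.08 at P3 and 6.43 and 6.61 at P4, against 7.04 and 7.06 in parental cells. Its early arrays were all above the late and the parental ones, an order not counted over the kept probe sets (early against late difference 0.75, SE 0.12, limma adjusted p = 0.0036). It passed the filter only through brain P1 and P2, the groups in which it was high, and in the fit to all probe sets its adjusted p was 0.041. In the second experiment Xiap was at 6.89 and 6.53, below parental cells, and its difference from the first was -0.83, with an adjusted p of 0.10 in the fit to all probe sets. Birc5 (survivin), which also serves chromosome segregation, fell at brain P2, at 8.08 and 7.16, against 8.79 and 8.59 in parental cells (log2 difference -1.07, SE 0.29, adjusted p = 0.049). Htra2, a mitochondrial protease that antagonises these inhibitors, fell there too (log2 difference -0.87, SE 0.18, adjusted p = 0.017). In the fit to all probe sets the adjusted p were 0.28 for Birc5 and 0.15 for Htra2. Birc3 was the other gene of the list to rise in early against late brain cells (0.60, SE 0.18, adjusted p = 0.044). It passed the filter through brain P2 and lung P2, P3 and P4, and its adjusted p was 0.20 in the fit to all probe sets.

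Of 11 tested transcriptional and kinase regulators, 1 rose and 2 fell in early against late brain cells, where 23.9% of kept probe sets were called. Ddit3 (CHOP), a stress transcription factor known to repress Bcl2 and to induce Bcl2l11, was at 6.60 and 7.12 at brain P1, 8.54 and 7.22 at P2, 6.26 and 5.80 at P3 and 6.41 and 5.82 at P4, against 5.88 and 5.97 in parental cells. Within the first course both Ddit3 and Bcl2 had their highest group mean at P2. It was at 7.92 and 6.11 at P1 and P2 of the second experiment, where Bcl2 was at 9.82 and 8.89. Ddit3 was the gene of the list that rose, but it passed the filter only through brain P2 and the second experiment's P1, where it was high. In the fit to all probe sets its P2 difference from parental cells was 1.96 (SE 0.45, limma adjusted p = 0.13) and its early against late difference 1.30 (SE 0.32, adjusted p = 0.080), and neither passed. Jun, the target of the stress kinase Mapk8, was at 7.46 to 8.14 in early and 8.60 to 9.43 in late brain cells (log2 difference -1.32, SE 0.21, adjusted p = 0.0031). Jun in the second experiment was at 9.18 and 9.14, 1.36 above the first on the log2 scale (SE 0.26, adjusted p = 0.012, and 0.099 in the fit to all probe sets). Mapk8 fell in early against late brain cells as well (-0.49, SE 0.15, adjusted p = 0.043, and 0.21 in the fit to all probe sets). Foxo1, a transcription factor known to drive Bcl2l11, was lower in early brain cells than in early bone marrow and lung (-0.42, SE 0.12, adjusted p = 0.035). In the second brain experiment Foxo1 was higher than in the first by 0.68 (adjusted p = 0.018), whereas Bcl2l11 was below parental cells in both. In the fit to all probe sets the Foxo1 adjusted p were 0.22 and 0.16. A link between the 2 genes was not tested.

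Among 7 tested mitochondrial partners 1 rose and 1 fell in early against late brain cells, beside the same 23.9% of kept probe sets called. Mff, a receptor for the fission machinery, differed by 0.79 (SE 0.13). Vdac2, the channel that binds Bak1, was at 10.58 and 10.81 at brain P1 and 10.47 and 10.54 at P2, against 11.51 and 11.22 at P3 and 10.71 and 11.16 at P4 (log2 difference -0.55, SE 0.16, limma adjusted p = 0.040). Against early bone marrow and lung Vdac2 was lower by a log2 difference of -0.77 (SE 0.16, adjusted p = 0.012). In the fit to all probe sets the Vdac2 adjusted p were 0.20 and 0.087. Vdac2 and Bak1 thus both fell in these comparisons by the main fit. In the fit to all probe sets neither passed, with Bak1 at adjusted p of 0.13 and 0.0996. Of 9 tested binding partners and turnover genes 3 rose and 1 fell in early against late brain cells, where 13.6% of kept probe sets rose and 10.3% fell: Usp9x, the deubiquitinase known to stabilise Mcl1 protein, by 0.50 (SE 0.12), Dynll2, the dynein light chain that tethers Bmf, by 0.45 (SE 0.13), Becn1, an autophagy protein that Bcl2 binds, by 0.47 (SE 0.14), and Bag1, a Bcl2-binding co-chaperone, by -0.48 (SE 0.14). In the fit to all probe sets Usp9x, Dynll2, Becn1 and Bag1 did not pass, with adjusted p of 0.12, 0.19, 0.20 and 0.20. Usp9x was at 9.45 to 9.60 in the early brain arrays, those in which the Mcl1 level was lowest. The list medians of early against late brain were -0.24 for the pro-death relatives, -0.008 for the apoptosome and caspase genes and 0.23 for the inhibitor of apoptosis list. They were 0.16 for the regulators, 0.13 for the mitochondrial partners and 0.27 for the binding partners, and that of all kept probe sets was 0.07.

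**Figure D4:**
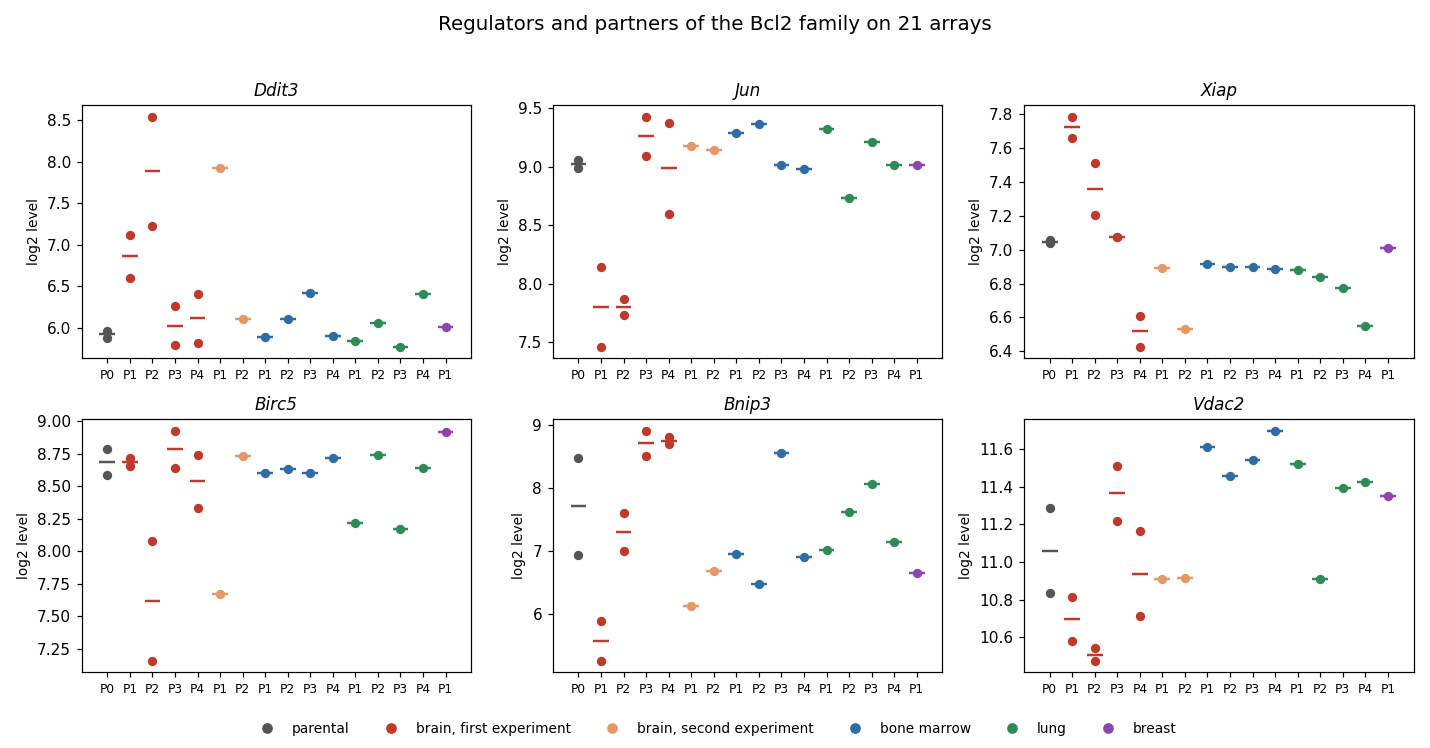
Log2 level (vertical axis) of 6 pathway genes on each array by tissue and passage, with points for arrays and bars for group means. Xiap is highest and Jun lowest in brain P1 and P2 of the first experiment, and Ddit3 is high there and at P1 of the second. Bnip3 is lowest at brain P1, at 5.90 and 5.26, while Birc5 is low at brain P2, at 8.08 and 7.16, and at P1 of the second experiment, at 7.67.

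For the members called between early and late brain, the genes with the closest course over the 16 group means were listed among the 7300 kept genes, as a description. For Bcl2 these were Cradd (Pearson's r 0.93, Spearman's rho 0.96), Arnt2 (0.93 and 0.78) and Agap1 (0.92 and 0.93). For Bcl2l11 they were Spats2 (0.90 and 0.82), Gm4832 (0.89 and 0.84) and S100a16 (0.88 and 0.83), and for Bak1 they were S100a11 (0.87 and 0.75), Krt14 (0.87 and 0.82) and Il17rc (0.85 and 0.82). The group means share the same arrays and, along a course, the same line.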

How the data were processed

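N202 RNA was hybridised to 21 arrays (Affymetrix Mouse Gene 1.0 ST). The authors deposited 1 log2 value for each probe set and array, made by RMA in the Affymetrix Expression Console, and these were used unscaled. That the scale is log2 follows from their range. Groups came from the labels. Of 34760 probe sets 21640 carry 1 gene symbol, 1321 several and 11799 none. The authors dropped dim probe sets by negative controls; here as many as they kept were taken by the largest group mean (at least 7.33).

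Tests were run in limma 3.58.1 under R 4.3.3, with 1 model of 16 group means, 5 residual and 3.9 prior degrees of freedom, and Benjamini-Hochberg adjustment over the kept probe sets. Calls are at an adjusted p under 0.05. Members below the filter were taken from a fit to all probe sets. The fit was checked on simulated data for the brain P1 comparison, and the outcome of that check is not reported here. The number of arrays limits the precision. Members, lists and comparisons were chosen with earlier results of these data known. All members, the called genes of each list (at most 4, by lowest p) and the 3 genes closest to each member called between early and late brain are named. Alternatives were the filter, the normalization, the variance model, chromosome medians, the adapted line or the technical replicate set as a block and leaving out arrays. Promoters are from RefSeq on GRCm38.p6. Python 3.11.15, numpy 2.4.6 and matplotlib 3.10.9 made the figures.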

Additional observations from a re-analysis of the deposited data

Results flagged for a closer look

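Results are listed here where the same gene behaved differently between brain experiments or between tissues by a test of the difference itself, with limma. Averaged over P1 and P2, the second brain experiment differed from the first by -0.62 for Bcl2, 0.76 for Mcl1 and 0.56 for Bak1 on the log2 scale. The adjusted p were 0.030, 0.013 and 0.034. For Bcl2 the passages went opposite ways. At P1 the second experiment was higher (9.82 against 9.54 and 9.68), and at P2 it was lower (8.89 against 10.26 and 10.41). Early brain cells differed from bone marrow and lung cells of the same passages by 1.28 for Bcl2, -0.61 for Mcl1 and -0.54 for Bak1, with adjusted p of 0.00029, 0.0087 and 0.011. Beside these stand 11.3% and 20.5% of all kept probe sets called in the same comparisons. In the fit to all probe sets only the Bcl2 difference against bone marrow and lung passed (adjusted p = 0.0062). Without the 5 arrays of high lower quartile none of the 6 passed, and all 6 kept their direction.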

How the results depend on the processing

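Alternatives were run in 11 comparisons for the 6 members that passed the filter. Bad, Bik and Bmf, which lay below it, had no alternative fits. Of the 828 alternative differences 717 kept direction and side of the threshold, 60 lost and 17 gained a call, and 34 turned sign; none of those 34 had passed. The 2 arrays of a pair, and lone arrays elsewhere, limit what can be called.

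At brain P1 the main count of 1 member became 0 with no filter, equal array medians, without the 5 arrays (chosen after seeing the data), with both brain experiments in 1 blocked group and without any 1 array. At brain P2 the count of 2 became 0 with no filter, without the 5 arrays and with both experiments, 1 with a filter on the mean, equal medians, cyclic loess or chromosome medians, 1 in every fit that left out 1 array, and 3 with a variance trend. For early against late brain, 3 became 1 with no filter, 5 with cyclic loess and 0 without the 5 arrays, and lay between 1 and 3 with 1 array left out. For the second against the first experiment, 3 became 0 with no filter or without the 5 arrays, and 1 with chromosome medians or any 1 array left out. For early brain against bone marrow and lung, 3 became 1 with no filter, 5 with cyclic loess, 0 without the 5 arrays and stayed 3 with 1 array left out. Bcl2 passed in every fit with 1 array left out at P2, early against late and against bone marrow and lung (lowest differences 1.08, 1.51 and 1.22). Between experiments the Bcl2 and Bak1 calls were lost in all 4 such fits (adjusted p 0.052 to 0.10).

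The brain arrays labelled technical replicate were also taken as a set and blocked against the first brain arrays (chosen after seeing the data). The second minus first differences of 2 passages correlated at 0.098 to 0.357 over the kept probe sets, positive in all 6 pairs of passages but not above 0.1 in all, and the labels do not say what the set shared. With this block the kept probe sets called rose from 496 to 686 at brain P1 and from 1185 to 1524 at P2. They rose from 2513 to 3066 in early against late brain and from 1186 to 1543 between experiments. In early brain against bone marrow and lung they rose from 2160 to 2575. Members called were 2 at brain P1, 3 at P2 and 5 in early against late brain. They were 3 between experiments and 5 in early brain against bone marrow and lung. The calls gained were Mcl1 at P1 (adjusted p = 0.046), Bak1 at P2 (0.043), Bcl2l1 and Mcl1 in early against late brain (0.011 and 0.046), and Bcl2l1 and Bcl2l11 against bone marrow and lung (0.019 and 0.046); no member lost a call.

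All signs that turned belonged to differences of at most 0.26 in size, none of which had passed. With 1 array left out, Bid ranged from -0.54 to 0.03 at brain P1, -0.21 to 0.36 at P4, -0.40 to 0.17 in bone marrow, -0.23 to 0.34 in lung and -0.41 to 0.16 in the second experiment. Bcl2l11 ranged from -0.33 to 0.12 at brain P3, -0.52 to 0.038 at P4, -0.12 to 0.016 in bone marrow and -0.14 to 0.01 in lung. Bcl2l1 ranged from -0.25 to 0.26 at brain P4, Bak1 from -0.026 to 0.077 at P4 and -0.068 to 0.090 in bone marrow, and Mcl1 from -0.031 to 0.068 in bone marrow. Without the 5 arrays Bcl2l11 was 0.12 at P3, 0.038 at P4 and 0.01 in lung. With equal medians Bcl2l1, Bak1 and Bid at P4 were -0.10, -0.084 and -0.035, and Bcl2l11 and Bak1 on breast -0.012 and -0.0018. With chromosome medians Bcl2l11 was 0.053 at P3, 0.011 in bone marrow and 3.1e-05 in lung, Mcl1 -0.0064 in bone marrow, and Bcl2l1 0.0037 in lung and 0.030 in the second experiment. With cyclic loess Bcl2l11 was 0.048 at P3 and Bcl2l1 0.023 in the second experiment.

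Counts of kept probe sets called moved too: 496, 1185 and 2513 at brain P1, P2 and early against late became 102, 179 and 1021 with no filter and 20, 16 and 137 without the 5 arrays, and both brain experiments in 1 group gave 0 at P1 and P2. For brain P3, P4, bone marrow, lung, breast and the second experiment the counts of 63, 98, 39, 23, 29 and 31 became 9, 6, 19, 3, 1 and 0 with no filter; the second against the first gave 1186 and 317, and brain against bone marrow and lung 2160 and 857. The mean over several probe sets was not run, since every member has 1. The cause of these changes was not tested.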
